A study of Mus musculus with 2 samples.

Results

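The genes described here are 10 transcription factors of the T cell and natural killer (NK) cell lineages, namely Tcf7, Lef1, Tox, Eomes, Tbx21, Foxp3, Ikzf2, Gata3, Rora and Bcl11b. They were taken by their symbols, all 10 were found, and they are 10 of the 31253 genes listed in the count files. Their RNA was counted by single-cell RNA sequencing (scRNA-seq) in 2 libraries of Cd45+ immune cells from B16-F10 melanoma, a mouse melanoma line that grows in C57BL/6 mice. Both groups were C57BL/6 mice that carried a subcutaneous tumor of 200000 injected B16-F10 cells for 10 days and had no other treatment in the labels, which do not give their age. One group was Irg1+/+ and the other Irg1-/-, a whole-body loss of Irg1 (also named Acod1), the enzyme that makes itaconate in activated myeloid cells. Pieces of 100 mm3 from the tumors of 3 mice were pooled into 1 library per genotype, so there is no replicate and no test, and the genotype, the pool of mice and the preparation cannot be told apart.

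T cells and NK cells are kept apart by sets of transcription factors. Tcf7 and Lef1 encode related HMG box proteins (TCF-1 and LEF-1) that act in T cell development and mark naive, memory and stem-like T cells. Tox, another HMG box protein, is known from T cells under lasting antigen stimulation, and Eomes and Tbx21 (T-bet) are T-box factors of cytotoxic lymphocytes. Foxp3 defines regulatory T cells, many of which also carry Ikzf2 (Helios), whereas Gata3, Rora and Bcl11b act in T helper cells, in innate-like lymphocytes and in the commitment to the T lineage.

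Throughout, a pair of values gives the library labelled Irg1+/+ first and the library labelled Irg1-/- second. The files held 6408 and 5896 cells, beside 6000 sorted cells per sample in the labels. The 124 and 102 cells with 10% or more of their unique molecular identifiers (UMIs, which count each captured RNA molecule once) in mitochondrial genes were left out. The 6284 and 5794 kept cells held 42105693 and 35307041 UMIs outside mitochondrial genes, with medians of 4528 and 4594.5 UMIs per cell. Ptprc (Cd45), the marker of the sort, had a UMI in 97.5% and 98.0% of the 1263 and 1122 cells in the gates described below. Its share over all kept cells was not read. The 2 libraries shared 36 cell barcodes, of which 9 and 8 fell in the gates used here. Acod1, the targeted gene, stood at 87.8 and 108 CPM (counts per 1000000 UMIs), so it was not lower in the library labelled Irg1-/-. Where the deleted part of the gene lies relative to the 3′ end that is counted is not given in the sources used here, and the direction of every difference between the libraries rests on the labels.

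Cells were gated on markers, none of which is one of the 10 genes. A cell entered a gate only if its UMIs of 11 T and NK cell genes outnumbered those of 10 genes of other lineages. CD8 T cells (662 and 376) had a Cd3 UMI and a Cd8a or Cd8b1 UMI without Cd4. CD4 T cells with Il2ra and with Ctla4 or Tnfrsf4 were taken as regulatory T cells (152 and 77), and the other CD4 T cells as conventional CD4 T cells (164 and 122). Gamma delta-like T cells (27 and 42) had Trdc without Trac, Cd4, Cd8 or Ncr1, and NK cells (258 and 505) had Ncr1 or Klrb1c without any Cd3 UMI. A further 589 and 392 T cells fell in no gate. The 3721 and 3721 cells with at least 5 UMIs of macrophage and monocyte genes (the same number in both libraries by coincidence) served as a myeloid reference, in which most of the 10 genes should be silent, and their level there is given beside each gate as a comparison level. Doublets were not called, 259 and 126 of these cells held both Cd4 and Cd8 UMIs, and the 9 T cell genes summed to 686 and 504 CPM in them, so free RNA and doublets with T cells cannot be told apart in this level.

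The gates carried their own check genes, which had not been used to draw them. The 5 regulatory T cell check genes summed to 2787 and 2450 CPM in the regulatory gate and to 1109 and 819 CPM in the conventional CD4 gate, with Tnfrsf9 the most abundant at 1270 and 1101 CPM in the former. The 8 NK cell check genes summed to 14751 and 18264 CPM in the NK gate against 2778 and 2776 CPM in CD8 T cells, with Gzma the most abundant. They also reached 5195 and 6754 CPM in the gamma delta-like gate, with Gzma at 1658 and 2902 CPM and the NK gate marker Klrb1c at 342 and 374 CPM, while Ncr1 was at 0 by the gate; their part in the levels of that gate was not tested. The 9 gamma delta genes, of which Trdc was used for the gate, summed to 6476 and 5586 CPM in the gamma delta-like gate and to at most 186 CPM in the other 4 gates. Median depth differed between gates, from 4630.5 and 6120.5 UMIs in CD8 T cells and 5053.5 and 5152 in regulatory T cells down to 2662.5 and 2535 in NK cells and 2218 and 2395.5 in gamma delta-like T cells. Shares of cells with a UMI are therefore also given after each cell was thinned to 2000 UMIs, and fold changes are given on CPM. Intervals are exact 95% intervals for counting error only and carry nothing about differences between mice.

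Tcf7 (chr11:52252371-52283014 on GRCm38) was highest outside the CD8 and regulatory T cell gates. Conventional CD4 T cells held 376 and 373 CPM, NK cells 326 and 168 CPM and gamma delta-like T cells 239 and 383 CPM. CD8 T cells held 129 and 85.7 CPM, and regulatory T cells only 27.6 and 44.2 CPM, beside 30.3 and 22.5 CPM in the myeloid reference. The interval of regulatory T cells took in the myeloid level in the library labelled Irg1+/+ (18.1 to 40.5 CPM) and lay above it in the other (28.01 to 66.3 CPM). After thinning a Tcf7 UMI was found in 3.47% and 9.59% of them, in 5.07% and 4.06% of myeloid cells and in 43.7% and 42.9% of conventional CD4 T cells. In the library labelled Irg1+/+ the intervals of conventional CD4, NK and gamma delta-like cells overlapped, and that of gamma delta-like cells also reached CD8 T cells. In the other library NK cells lay below conventional CD4 and gamma delta-like T cells and above CD8 T cells without overlap. Among cells without a UMI of the cell cycle genes Mki67 and Top2a, CD8 T cells held 305 and 387 CPM, NK cells 347 and 167 CPM and conventional CD4 T cells 473 and 325 CPM, so that CD8 T cells were no longer below the other 2 gates in the library labelled Irg1-/-.

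Lef1 (chr3:131110471-131224356), the partner of Tcf7, differed less across the gates than Tcf7 did. It ranged from 35.9 CPM in CD8 T cells to 85.4 CPM in gamma delta-like T cells in the library labelled Irg1+/+, and from 34.6 CPM in regulatory T cells to 83.6 CPM in NK cells in the other. Every neighbouring pair of gates overlapped in this order in both libraries, and every gate stood above the 5.14 and 4.50 CPM of the myeloid reference. NK cells held 45.4 and 83.6 CPM and gamma delta-like T cells 85.4 and 36.5 CPM, the latter from only 5 and 4 UMIs. The ratio of Tcf7 to Lef1 UMIs was 7.17 and 2.01 in NK cells, 3.58 and 1.97 in CD8 T cells and 5.10 and 5.81 in conventional CD4 T cells.

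Tox (chr4:6686353-6991557) was highest in CD8 T cells, at 202 and 176 CPM. Regulatory T cells followed with 149.9 and 121 CPM, below CD8 T cells without overlap of the intervals in both libraries. Among cells without a Mki67 or Top2a UMI this order of CPM was kept only in the library labelled Irg1-/-. In such cells CD8 T cells held 141 and 101 CPM and regulatory T cells 144 and 93.4 CPM. The thinned shares were 16.1% and 7.84% against 26.7% and 13.8%, with overlap. Conventional CD4 T cells held 87.0 and 39.7 CPM and NK cells 51.9 and 42.8 CPM, against 8.44 and 7.61 CPM in myeloid cells. The gamma delta-like cells gave 17.1 and 100.4 CPM from only 1 and 11 UMIs, with intervals of 0.433 to 95.2 and 50.1 to 179.6 CPM.

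Of the T-box factors, Eomes was higher in the NK, gamma delta-like and CD8 gates than in the CD4 gates. Eomes (chr9:118478212-118486132) reached 357 and 385 CPM in NK cells, 119.6 and 128 CPM in gamma delta-like T cells and 77.2 and 85.7 CPM in CD8 T cells. It was low in conventional CD4 T cells (5.68 and 24.5 CPM, from 3 and 8 UMIs) and regulatory T cells (2.13 and 13.5 CPM, from 2 and 7 UMIs), beside 4.48 and 8.58 CPM in myeloid cells. In conventional CD4 T cells of the library labelled Irg1-/- it was above the myeloid level (interval 10.6 to 48.2 CPM, thinned share 3.90%), with a thinned share of 0.840% in the other. In regulatory T cells the thinned shares, 0.694% and 1.37%, were at or below the 1.00% and 1.81% of myeloid cells. Tbx21 (chr11:97098071-97115331) was also highest in NK cells, at 198 and 257 CPM, but was spread over all T cell gates. It held 103 and 114 CPM in CD8 T cells, 96.5 and 104 CPM in conventional CD4 T cells, 103 and 152 CPM in regulatory T cells and 85.4 and 100.4 CPM in gamma delta-like T cells, all overlapping with their neighbours, against 14.6 and 20.8 CPM in myeloid cells. The ratio of Eomes to Tbx21 UMIs therefore differed between gates. It was 1.80 and 1.497 in NK cells, 1.40 and 1.27 in gamma delta-like T cells and 0.746 and 0.753 in CD8 T cells, and only 0.0588 and 0.235 in conventional CD4 and 0.0206 and 0.0886 in regulatory T cells. Such ratios are compared across gates only, since the capture of 2 different genes is not equal.

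Foxp3 (chrX:7573644-7595245) and Ikzf2 (chr1:69531214-69687245) marked the regulatory gate although neither was used to draw it. Foxp3 stood at 632 and 375 CPM there, and a Foxp3 UMI was found in 85.5% and 68.8% of the cells (66.0% and 49.3% after thinning, against 2.22% and 1.32% of myeloid cells). Conventional CD4 T cells held 170.3 and 101 CPM, with a UMI in 18.3% and 11.5% of cells, so that gate still contained cells with Foxp3 RNA. CD8 T cells held 20.1 and 11.2 CPM, with thinned shares of 2.99% and 2.94%, close to the myeloid cells at 14.4 and 8.17 CPM, and NK cells 6.49 and 8.29 CPM. No Foxp3 UMI was found in the 27 gamma delta-like T cells labelled Irg1+/+, which allows up to 51.3 CPM by 3 counts of the gate's total (63.0 CPM as the exact 95% upper end), and 1 UMI in the 42 of the other library. Ikzf2 was 1161 and 1024 CPM in regulatory T cells, 378 and 242 CPM in conventional CD4 T cells, 215 and 109 CPM in CD8 T cells, 205 and 209.9 CPM in gamma delta-like T cells and 68.8 and 39.4 CPM in NK cells, against 40.0 and 26.9 CPM in myeloid cells. Both RNAs were found together in 80.9% and 64.9% of regulatory T cells, and in 59.0% and 45.2% after thinning.

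Gata3 (chr2:9857078-9890034) is the factor of type 2 helper cells that also acts early in T cell development. Its level was higher in the CD4 and gamma delta-like gates than in the NK and CD8 gates. Conventional CD4 T cells held 153 and 159 CPM, gamma delta-like T cells 137 and 146 CPM and regulatory T cells 132 and 133 CPM, with overlapping intervals, while NK cells held 61.0 and 89.1 CPM and CD8 T cells 53.3 and 41.7 CPM. The gamma delta-like interval overlapped that of NK cells in both libraries (59.0 to 269.4 against 44.8 to 81.1 CPM, and 83.5 to 237 against 74.4 to 106 CPM) and that of CD8 T cells in the library labelled Irg1+/+, and regulatory T and NK cells overlapped in the library labelled Irg1-/-. Rora (chr9:68653786-69388246), a nuclear receptor of type 17 helper and innate lymphoid cells, was highest in gamma delta-like T cells of the library labelled Irg1+/+ (837 CPM, against 338 CPM in the other) and in conventional CD4 T cells (588 and 651 CPM). Regulatory T cells held 371 and 275 CPM. CD8 T cells (175 and 108 CPM) and NK cells (188 and 92.6 CPM) were lowest and overlapped in both libraries. Bcl11b (chr12:107910403-108003602), the factor of T lineage commitment, was read in every T cell gate, with 316 and 349 CPM in conventional CD4, 342 and 192 CPM in gamma delta-like, 257 and 142 CPM in regulatory and 131 and 118 CPM in CD8 T cells. NK cells held 9.08 and 10.4 CPM, at the 12.1 and 9.60 CPM of myeloid cells, and the thinned share of NK cells with a UMI, 1.43% and 1.32%, was at or below that of myeloid cells, 2.41% and 1.60%. Bcl11b in NK cells was therefore not distinguished from the myeloid level.

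**Figure D1:**
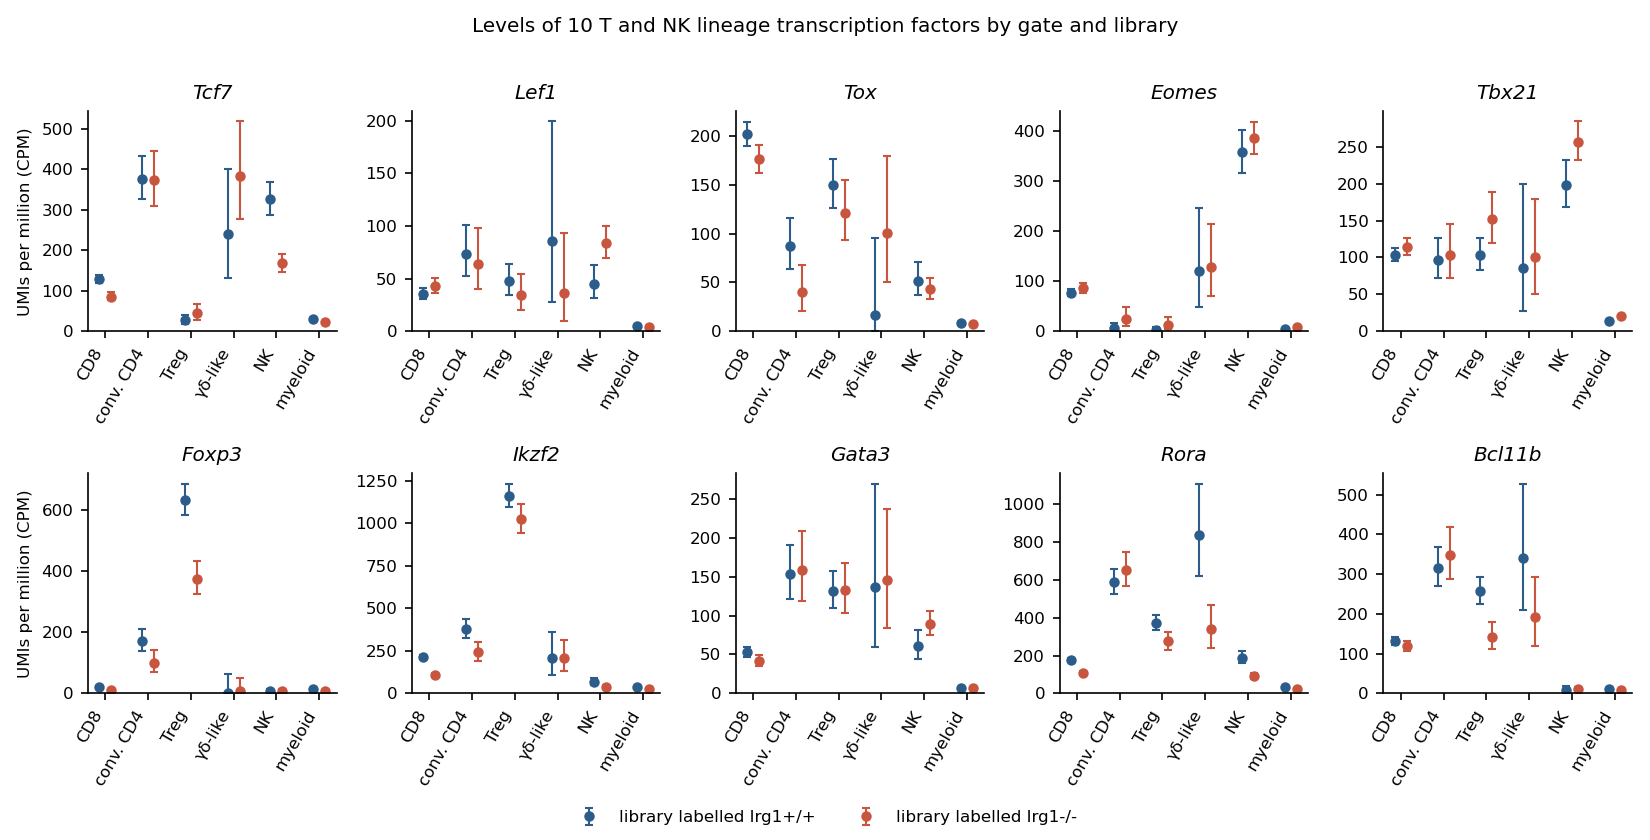
Level of each of the 10 genes in CPM (linear axis from 0) in the 5 gates and the myeloid reference, with 1 point per library (blue, labelled Irg1+/+, and red, labelled Irg1-/-) and exact 95% intervals for counting error. Foxp3 and Ikzf2 peak in regulatory T cells (Treg), Eomes and Tbx21 in NK cells and Tox in CD8 T cells, and Bcl11b in NK cells lies at the level of myeloid cells.

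Folds between gates were read inside each library and called only where both libraries gave at least 2-fold in the same direction. NK cells differed from CD8 T cells in 4 of 10 genes, where 13.1% of all genes with at least 20 UMIs in each library passed the same rule. Eomes was higher in NK cells, with log2 folds of 2.21 and 2.17, which is 4.62-fold and 4.49-fold. Bcl11b (-3.75 and -3.47), Tox (-1.94 and -2.03) and Ikzf2 (-1.63 and -1.46) were lower. The fold of Bcl11b is set against an NK level not distinguished from that of myeloid cells, so its size is not a measure of NK cells. Tcf7 (1.34 and 0.97) and Tbx21 (0.94 and 1.18) were each higher but passed 2-fold in only 1 library. Without the cells of both gates that held a Mki67 or Top2a UMI, Tcf7 stood at 0.18 and -1.22. The call of Ikzf2 was lost in 2 of 13 alternatives, with no exclusion and with a stricter exclusion of other lineages.

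Gamma delta-like over CD8 T cells gave 2 calls of 10, with 14.4% of all genes called. These were Gata3 (log2 fold 1.44 and 1.85) and Rora (2.27 and 1.67), both higher. This gate is the smallest, and its call for Gata3 rests on 8 and 16 UMIs in the gamma delta-like cells. The call of Gata3 was lost in 3 of 12 alternatives and that of Rora in 4 of 12, both of them with no exclusion or a stricter exclusion of other lineages and for the mean of each cell's CPM, and Rora also without cells that held a cell cycle UMI.

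Conventional CD4 over CD8 T cells gave 7 calls of 10, with 9.21% of all genes called. Foxp3 (3.09 and 3.17), Rora (1.75 and 2.60), Tcf7 (1.55 and 2.13), Gata3 (1.53 and 1.94) and Bcl11b (1.28 and 1.56) were higher, and Eomes (-3.55 and -1.72) and Tox (-1.20 and -2.09) were lower. Eomes in conventional CD4 T cells of the library labelled Irg1+/+ (1.17 to 16.6 CPM) took in the myeloid level, and Foxp3 in CD8 T cells was only 1.39 and 1.37 times the myeloid level, so the sizes of these folds are not measures of those cells. The calls of Tcf7 and Bcl11b were each lost in 4 of 12 alternatives. Without the cells of both gates that held a Mki67 or Top2a UMI, Tcf7 stood at -0.25 in the library labelled Irg1-/- and neither gene was called. Neither was called after thinning to 2000 UMIs, for the mean of each cell's CPM or with a stricter exclusion of other lineages.

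Regulatory over conventional CD4 T cells gave 3 calls of the 9 genes with enough UMIs, with 3.97% of all genes called. Foxp3 (1.88 and 1.87) and Ikzf2 (1.61 and 2.08) were higher, and Tcf7 (-3.74 and -3.05) was lower, against a level in regulatory T cells of the library labelled Irg1+/+ that took in the myeloid one, so the size of that fold is not a measure of regulatory T cells. Tox was higher by 0.77 and 1.56, and Rora (-0.67 and -1.24) and Bcl11b (-0.30 and -1.29) were lower, without passing 2-fold in both libraries. Eomes had too few UMIs.

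**Figure D2:**
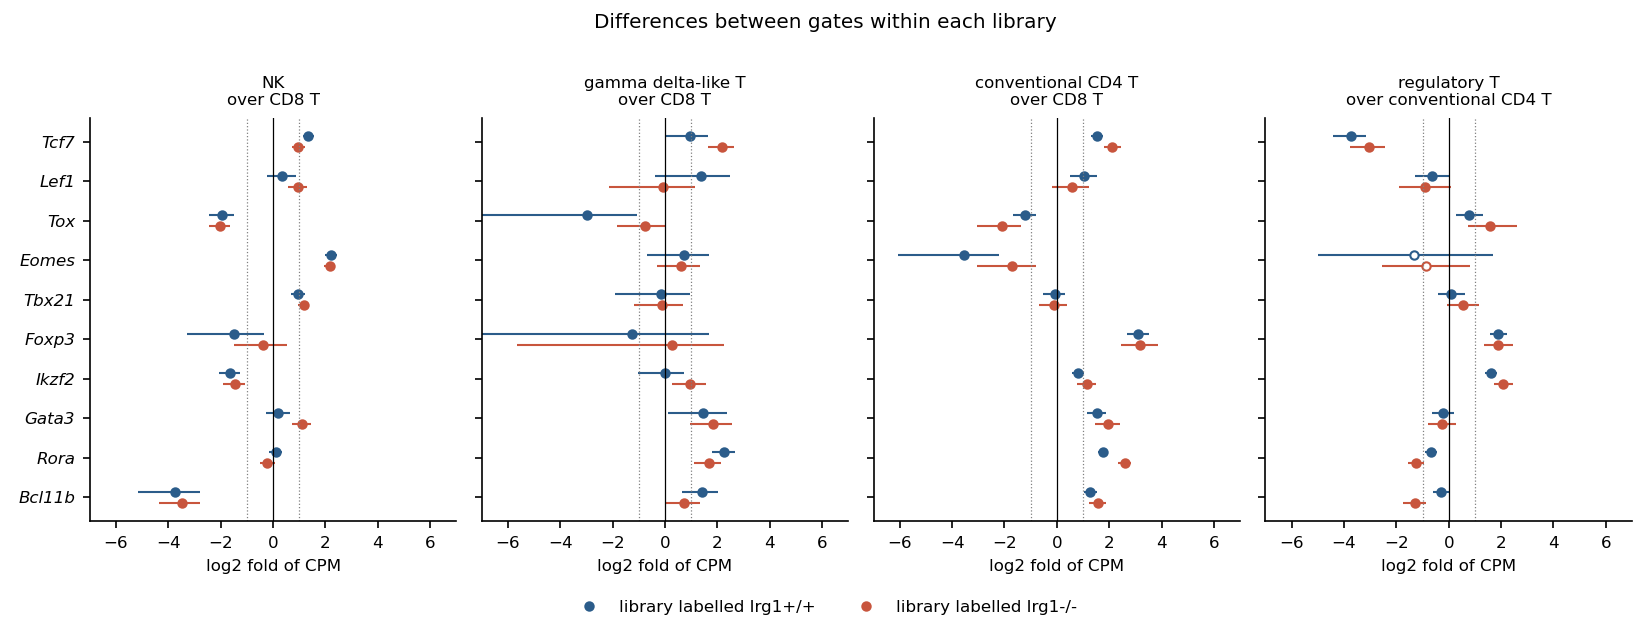
log2 fold of CPM between gates for each of the 10 genes, with 1 point per library (blue, labelled Irg1+/+, and red, labelled Irg1-/-), exact 95% intervals for counting error and dotted lines at 2-fold. Open points had fewer than 20 UMIs in a library, and intervals are drawn to the edge of the axis where they run past it. Bcl11b in NK over CD8 T cells and Tcf7 in regulatory over conventional CD4 T cells lie far to the low side in both libraries, but NK cells held Bcl11b, and regulatory T cells of the library labelled Irg1+/+ held Tcf7, at about the myeloid level.

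In CD8 T cells the level of Tcf7 was higher in cells without a UMI of the cell cycle genes Mki67 and Top2a. Such a UMI was found in 58.8% and 61.2% of CD8 T cells and in 40.2% and 32.4% of myeloid cells. The cells that held one are called Mki67/Top2a-positive here, whether or not they were in cycle, and the split itself was made on all UMIs and not at equal depth. Tcf7 stood at 88.5 CPM in the 389 positive and 305 CPM in the 273 other cells of the library labelled Irg1+/+, and at 35.5 CPM in 230 positive and 387 CPM in 146 other cells of the library labelled Irg1-/-. The log2 fold of positive over other cells was thus -1.79 and -3.44. Positive cells were deeper (medians of 8980 and 11232 against 3129 and 2591.5 UMIs), and at equal depth of 2000 UMIs a Tcf7 UMI was found in 16.0% and 10.3% of them against 41.5% and 48.0% of the others.

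Lef1 went the same way as Tcf7 (23.4 against 91.0 CPM and 36.2 against 86.9 CPM), as did Rora (156 against 260.5 CPM and 77.5 against 288 CPM) and Bcl11b (119.5 against 179.9 CPM and 103 against 211 CPM). After thinning, a Lef1 UMI was found in 6.27% against 16.1% of cells, without overlap of the intervals, and in 9.80% against 17.6%, with overlap. The intervals of Rora (24.8% against 31.3%) and Bcl11b (25.4% against 29.0%) overlapped in the library labelled Irg1+/+. In the other library the thinned shares were 14.2% against 31.4% for Rora, without overlap, and 22.1% against 34.3% for Bcl11b, with overlap. Tox went the other way, with 216 CPM in positive against 141 CPM in other cells and 189 against 101 CPM, and thinned shares of 31.6% against 16.1% and 28.9% against 7.84%. For Eomes, Tbx21, Ikzf2 and Gata3 the log2 folds lay between -0.56 and 0.34, and Foxp3 rested on 84 and 20 UMIs and on 24 and 14 UMIs. In NK cells Tcf7 differed less, with 281 CPM in 61 positive and 347 CPM in 197 other cells, and 172 CPM in 91 and 167 CPM in 414. In both CD4 gates its log2 fold of positive over other cells went opposite ways in the 2 libraries. It was -0.81 and 0.57 in conventional CD4 T cells. In regulatory T cells it was -1.89 and 0.78, from 11 and 15 UMIs and from 20 and 3 UMIs.

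**Figure D3:**
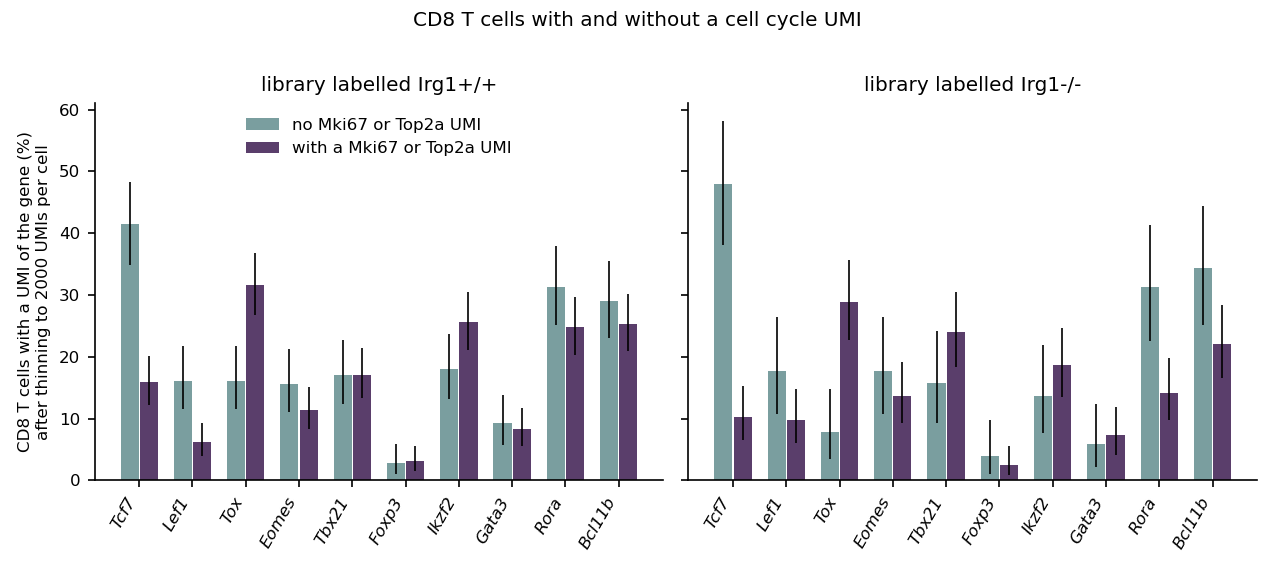
Percent of CD8 T cells with a UMI of each gene after thinning to 2000 UMIs per cell, in cells with (dark) and without (light) a Mki67 or Top2a UMI, per library, with exact 95% binomial intervals and the axis from 0. Tcf7 was found in 41.5% and 48.0% of the cells without a cell cycle UMI and in 16.0% and 10.3% of those with one, and Tox shows the opposite order.

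CD8 T cells with a Tcf7 UMI (219 and 118 cells) were set against those without (443 and 258) on 23 T cell state genes. A gene was counted as higher or lower where its interval left out equality in both libraries, which 5.06% of all genes did upward and 3.43% downward, around medians of 0.02 and 0.03 on the log2 scale. Both sets come from the same gate and libraries, and cells with Tcf7 were shallower (medians of 4187 and 3739 UMIs with and 5023 and 7950.5 without), so this is a description of cells and not a test of a condition.

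Of the memory or naive genes reported here, 4 of 6 with enough UMIs were higher with Tcf7 and none was lower, with medians of 1.52 and 1.06. S1pr1, the receptor for leaving tissue, was 100.1 against 29.8 CPM and 90.8 against 14.5 CPM. Il7r, the interleukin 7 receptor, was 473 against 158 CPM and 538 against 135 CPM, and the lymph node homing receptor Ccr7 (237 against 82.1 and 156 against 90.7 CPM) and Slamf6 (82.5 against 28.9 and 48.7 against 19.3 CPM), a marker of stem-like T cells, followed. Cxcr5 had too few UMIs.

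Of the inhibitory receptors, 5 of 7 were lower with Tcf7 and none was higher, with medians of -0.54 and -0.72. Havcr2 (Tim-3) was 102 against 315 CPM and 208 against 339 CPM, and Pdcd1 (PD-1) was 279 against 371 CPM and 236 against 464 CPM. Entpd1 (CD39), Cd244a and Lag3 were also lower, and Tigit and Ctla4 did not pass in both libraries. When cells were thinned before they were split, 4 of 7 were lower and Cd244a no longer passed.

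Of the 9 effector genes, 5 were lower and 1 was higher. Gzmb, the granzyme B of killing granules, was 1323 against 3486 CPM and 3075 against 3973 CPM, and Prf1 (perforin) was 199 against 496 CPM and 385 against 512 CPM. Ifng, Nkg7 and Cx3cr1 were lower as well. When cells were thinned before they were split, 4 of 9 were lower and Cx3cr1 no longer passed. Ccl5, a chemokine, was higher by log2 folds of 0.22 and 0.29, but not after thinning or without Mki67/Top2a-positive cells, and Gzma (564 against 704 CPM and 523 against 451 CPM) and Gzmk (142 against 101 CPM and 73.1 against 165 CPM) went in opposite directions in the 2 libraries.

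Among the other members, Lef1 (57.3 against 26.4 and 57.6 against 38.3 CPM), Eomes (105 against 64.8 and 105 against 78.6 CPM) and Rora (225 against 153 and 139 against 95.9 CPM) were higher in CD8 T cells with Tcf7. Tox (169 against 217 and 131 against 193 CPM) and Tbx21 (80.6 against 114 and 75.3 against 128 CPM) were lower. After thinning, a Tox UMI was found in 17.1% and 5.71% of cells with Tcf7 and in 28.7% and 26.7% of cells without, and both RNAs together in 4.40% and 1.31% of CD8 T cells. Among CD8 T cells with no cell cycle UMI, Il7r and S1pr1 were still higher, and Ccr7 and Slamf6 no longer passed in both libraries. Xcl1, a chemokine on the memory or naive list, was lower there (-2.52 and -1.23). Of the inhibitory receptors 5 of 7 were lower, with Ctla4 in place of Cd244a, and of the effector genes 6 of 9, with Klrg1 added. No other member was higher in both libraries among these cells. When cells were thinned before they were split, the log2 ratio of Xcl1 was -1.39 and -0.97, Tox and Tbx21 no longer passed as lower, and Bcl11b and Lef1 were the other members that were higher.

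**Figure D4:**
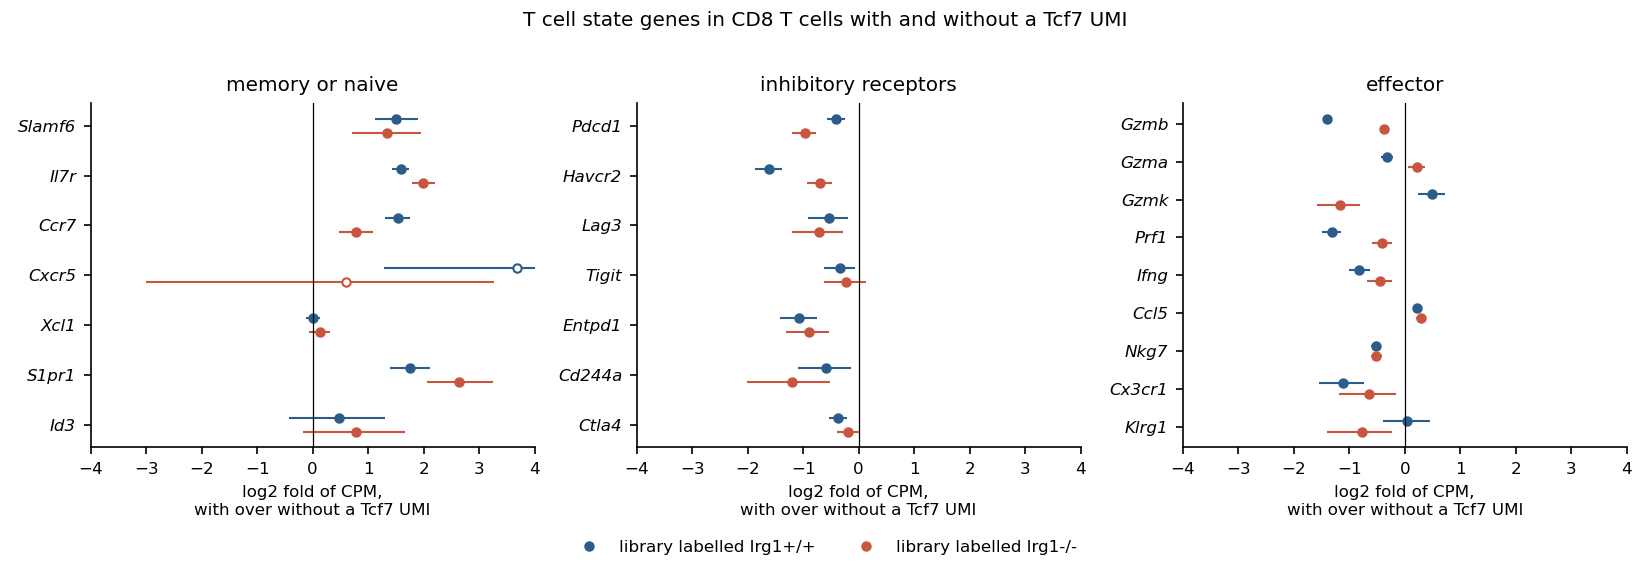
log2 fold of CPM in CD8 T cells with over without a Tcf7 UMI for memory or naive genes, inhibitory receptors and effector genes, with 1 point per library (blue, labelled Irg1+/+, and red, labelled Irg1-/-) and exact 95% intervals for counting error. Open points had fewer than 20 UMIs and intervals are drawn to the edge of the axis where they run past it. S1pr1, Il7r, Ccr7 and Slamf6 lie to the right in both libraries, and Havcr2, Entpd1, Pdcd1, Lag3 and Cd244a lie to the left.

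Between the libraries, a member was called where it differed by at least 1.5-fold and its interval left out equality. The median of all genes was between -0.05 and -0.01 on the log2 scale in the 5 gates. Markers of other cells also differed between the libraries. In the myeloid reference itself, Foxp3 (-0.82), Rora (-0.60), Ikzf2 (-0.57), Tcf7 (-0.43) and Bcl11b (-0.33) were lower and Eomes (0.94) and Tbx21 (0.51) higher in the library labelled Irg1-/-. The 4 melanocyte genes summed to 162 and 39.9 CPM in CD8 T cells, 199 and 36.7 in conventional CD4, 157 and 32.7 in regulatory, 188 and 27.4 in gamma delta-like T cells and 138 and 38.0 CPM in NK cells, with Dct the most abundant in each. The 3 neutrophil genes summed to 9.08 and 147 CPM in NK cells, with S100a9 at 77.4 CPM in the latter, to 23.7 and 46.7 CPM in CD8, 37.8 and 48.9 in conventional CD4 and 18.1 and 63.4 in regulatory T cells, and to 0 and 45.6 CPM in gamma delta-like T cells. The 4 mast cell or basophil genes summed to 6.49 and 31.1 CPM in NK cells, 8.88 and 26.3 in CD8, 7.57 and 33.6 in conventional CD4 and 12.8 and 28.8 in regulatory T cells, 17.1 and 0 in gamma delta-like T cells and 40.5 and 116 CPM in myeloid cells, where Tpsb2 reached 50.5 CPM in the library labelled Irg1-/-. The 8 NK check genes summed to 411 and 654 CPM in myeloid cells and 1359 and 1626 CPM in regulatory T cells. In conventional CD4 T cells they summed to 2261 and 2372 CPM, and in CD8 T cells to 2778 and 2776 CPM. The NK gate genes Ncr1 and Klrb1c summed to 8.51 and 63.4 CPM in regulatory, 71.9 and 82.5 in conventional CD4 and 39.6 and 43.1 in CD8 T cells. The 7 myeloid genes, mostly Lyz2, summed to 1932 and 1929 CPM in NK cells and 2037 and 2176 CPM in CD8 T cells. They summed to 2176 and 1975 CPM in conventional CD4, 2007.5 and 2041 in regulatory and 1640 and 1871 in gamma delta-like T cells. All 7 are among the genes of other lineages that limit entry to the gates. Their sums in the gates therefore cannot show whether myeloid RNA differed between the libraries. The part of these RNAs in the ratios below was not tested.

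NK cells gave 4 calls of the 9 members with enough UMIs, where 6.48% of all genes were called, and the members' median was 0.11. Tcf7 was 326 CPM in the library labelled Irg1+/+ and 168 CPM in that labelled Irg1-/- (-0.96, interval -1.22 to -0.70), and 48.1% and 25.0% of NK cells had a Tcf7 UMI (38.6% and 23.0% after thinning). Rora was 188 and 92.6 CPM (-1.02, interval -1.37 to -0.67) and Ikzf2 68.8 and 39.4 CPM (-0.80, interval -1.37 to -0.24), while Lef1 was higher, with 45.4 and 83.6 CPM (0.87, interval 0.33 to 1.47). Eomes differed by 0.11 (interval -0.10 to 0.32) and Tbx21 by 0.37 (interval 0.10 to 0.65), which is below 1.5-fold.

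Tcf7 and Rora in NK cells passed in each of the 14 alternative settings, with log2 ratios between -1.69 and -0.81 and between -1.48 and -0.87. The interval of Tcf7 did not overlap that of the myeloid reference (-0.58 to -0.28), and that of Rora did (-0.76 to -0.45). The interval of Ikzf2 in NK cells (-1.37 to -0.24) took in the whole myeloid interval (-0.70 to -0.43), and its NK level was only 1.72 and 1.46 times the myeloid level. Lef1 was lost, at 0.52 and 0.024, when cells of other lineages were not left out or were left out more strictly, and Ikzf2 in 4 of 14 settings. The NK gate is defined without Cd3 UMIs, but the 2 Cd8 genes summed to 71.3 and 38.0 CPM and Trdc stood at 115 and 133 CPM in it. In the 213 and 455 NK cells without a Cd8 UMI, Tcf7 was at -0.97, Rora at -1.08, Ikzf2 at -0.91 and Lef1 at 0.83. The 5 genes of type 2 innate lymphoid cells summed to 13.0 and 32.5 CPM in this gate, with Il5 at 0 in both libraries and the most abundant, Calca, at 17.3 CPM in the library labelled Irg1-/-.

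CD8 T cells gave 3 calls of 10, all lower in the library labelled Irg1-/-, where 5.79% of all genes were called, and the members' median was -0.28. They were Ikzf2 (215 and 109 CPM, -0.98, interval -1.15 to -0.81), Foxp3 (20.1 and 11.2 CPM, -0.83) and Rora (175 and 108 CPM, -0.70). Tcf7, at 129 and 85.7 CPM (-0.58), fell just short of 1.5-fold. The calls of Foxp3 and Rora were each lost in 5 of 13 alternatives and their ratios were close to those of the myeloid reference, while that of Ikzf2 was lost in 1, without Mki67/Top2a-positive cells, where it stood at -0.41 (interval -0.85 to 0.0026). The Tcf7 ratio differed in sign between cells without a cell cycle UMI, at 305 and 387 CPM (0.34, interval 0.07 to 0.61), and Mki67/Top2a-positive cells, at 88.5 and 35.5 CPM. Without the 5% of cells with the most UMIs it was -0.24.

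Conventional CD4 T cells gave 3 calls of 9, where 7.56% of all genes were called, and the members' median was -0.01. Tox (87.0 and 39.7 CPM, -1.09), Foxp3 (170.3 and 101 CPM, -0.74) and Ikzf2 (378 and 242 CPM, -0.64) were lower in the library labelled Irg1-/-. When regulatory T cells were instead gated on Foxp3, so that cells with Foxp3 left the conventional gate, Ikzf2 stood at 0.15. The calls were lost in 4 of 13 alternatives for Tox, 3 of 12 for Foxp3 and 6 of 13 for Ikzf2, and all 3 were lost without Mki67/Top2a-positive cells, after thinning and with a stricter exclusion of other lineages. Without Mki67/Top2a-positive cells all 3 were still lower in the library labelled Irg1-/-, from fewer UMIs. Foxp3 stood at 172 and 111 CPM (48 and 25 UMIs), Ikzf2 at 315 and 213 CPM (88 and 48 UMIs) and Tox at 68.1 and 48.9 CPM (19 and 11 UMIs). In this gate Mki67 and Top2a summed to 528 and 229 CPM and the 5 regulatory T cell check genes to 1109 and 819 CPM, and their part in these ratios was not tested. Tcf7 (376 and 373 CPM), Bcl11b (316 and 349 CPM), Rora (588 and 651 CPM) and Gata3 (153 and 159 CPM) differed by at most 0.15, with intervals that reached from -0.48 to 0.57 for Gata3.

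Regulatory T cells gave 2 calls of 9, where 7.52% of all genes were called, and the members' median was -0.30. Both were lower in the library labelled Irg1-/-, Foxp3 with 632 and 375 CPM (-0.75, interval -0.99 to -0.52) and Bcl11b with 257 and 142 CPM (-0.85, interval -1.25 to -0.47). Ikzf2 differed by less, with 1161 and 1024 CPM (-0.18, interval -0.33 to -0.03). The Foxp3 ratio was -0.43 without Mki67/Top2a-positive cells and -0.48 with no exclusion of other lineages, both short of 1.5-fold, and among myeloid cells Foxp3 differed by -0.82. The call of Bcl11b was lost in 4 of 13 alternatives, and its interval overlapped that of the myeloid reference (-0.57 to -0.10). When the gate was set by Foxp3 itself, Ikzf2 differed by -0.09 and Bcl11b by -0.79.

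Gamma delta-like T cells gave 1 call of 6, where 7.66% of all genes were called, and the members' median was 0.03. Rora was 837 and 338 CPM (-1.31, interval -1.97 to -0.66), from 49 and 37 UMIs in 27 and 42 cells, with a UMI in 48.1% and 35.7% of the cells. Its interval overlapped that of the myeloid reference (-0.76 to -0.45). The call was lost with a stricter exclusion of other lineages (-0.87, interval -2.77 to 0.58). Of the gamma delta genes of this gate, Cd163l1 was at 854 and 484 CPM and Il17a at 205 and 100.4 CPM, both known from gamma delta T cells that make interleukin 17, and the NK check gene Gzma was at 1658 and 2902 CPM. Their part in the Rora ratio was not tested. Tcf7 (239 and 383 CPM, 0.65) had an interval from -0.22 to 1.67, and differences of this size were not detectable at this depth. Before any alternative setting no gate gave a call for Eomes, Tbx21 or Gata3, but Eomes had too few UMIs in both CD4 gates and Tbx21 in gamma delta-like T cells. Without Mki67/Top2a-positive cells, Gata3 in CD8 T cells stood at 67.0 and 33.1 CPM (64 and 16 UMIs). Tbx21 in regulatory T cells then stood at 59.9 and 246 CPM (15 and 29 UMIs).

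**Figure D5:**
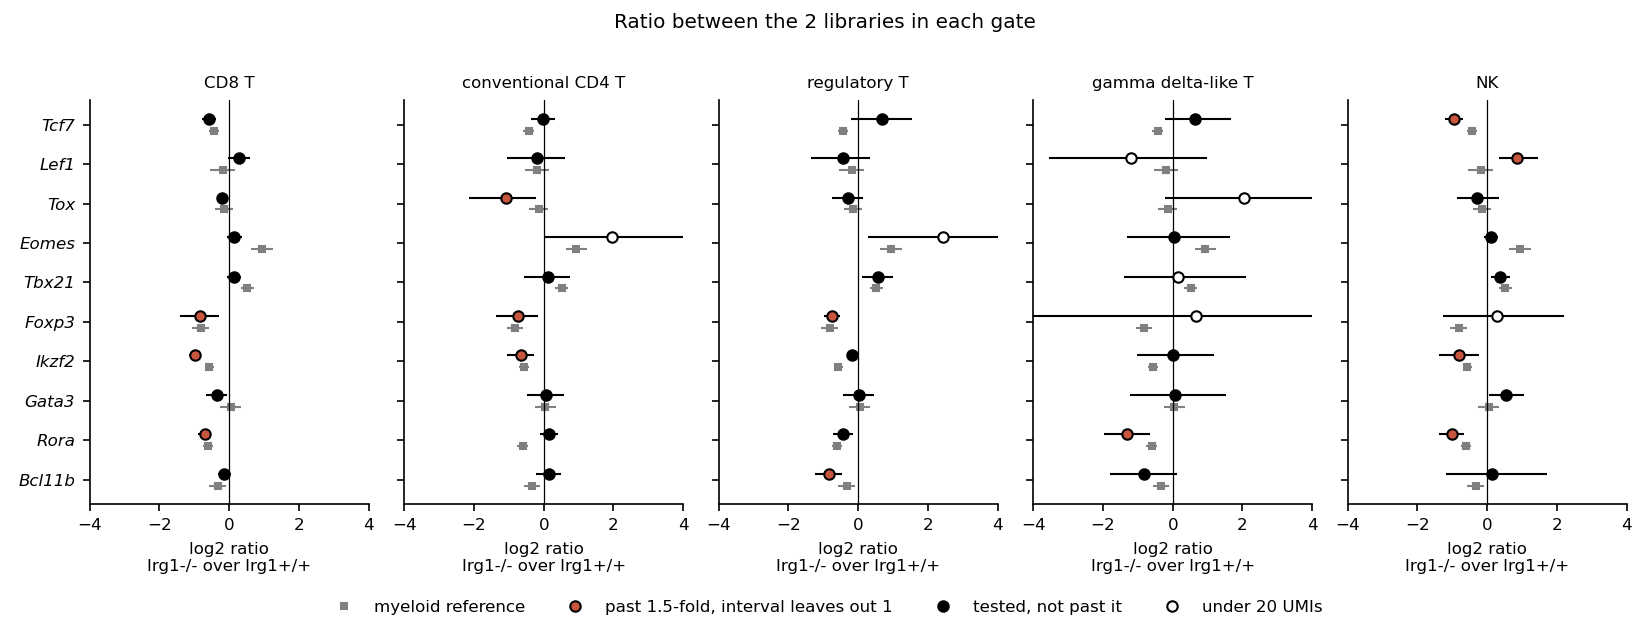
log2 ratio of CPM in the library labelled Irg1-/- over that labelled Irg1+/+ for each gene and gate (circles) with exact 95% intervals for counting error, beside the same ratio in the myeloid reference (grey squares). Red circles are at least 1.5-fold with an interval that leaves out equality, and white circles had fewer than 20 UMIs, and intervals are drawn to the edge of the axis where they run past it. In NK cells Tcf7 (-0.96), Rora (-1.02) and Ikzf2 (-0.80) are lower and Lef1 (0.87) is higher.

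A list of 35 other transcription factors of lymphocytes was read by the same rule. In CD8 T cells 31 were measured well enough, with none called higher and 1 lower, Hic1 (6.95 and 2.95 CPM), around a median of -0.15, and the others at the extremes were Id3 (0.44), Nr4a1 (0.31) and Irf4 (-0.49). In conventional CD4 T cells 26 gave 1 higher, Bach2, a repressor that keeps T cells quiescent (26.5 and 58.1 CPM, from 14 and 19 UMIs). Bcl6 (0.49), Zbtb7b (-0.50) and Ahr (-0.93) were next at the extremes without a call, and the median was 0.01. In regulatory T cells 27 gave 2 higher, Irf4 (103 and 188 CPM) and Bcl6 (20.2 and 59.6 CPM), and 3 lower, Satb1 (129.7 and 74.9 CPM), Ets1 (1385 and 892 CPM) and, named after its value was seen, Foxo1 (260.5 and 167 CPM), around a median of -0.03.

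In gamma delta-like T cells 17 gave 2 lower, Foxo1 (256 and 54.8 CPM, from 15 and 6 UMIs) and Nfil3 (461 and 228 CPM), with Maf (0.61) and Myb (0.23) at the other end and a median of -0.18. In NK cells 30 gave 1 lower, Ahr, the aryl hydrocarbon receptor (88.2 and 44.9 CPM, -0.97, interval -1.49 to -0.46), around a median of -0.15. Nr4a1, a gene induced by receptor signals, was the highest there (1003 and 1378 CPM, 0.46), followed by Bcl6 (0.33), and Zbtb16 was second lowest (-0.60), none of them called.

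The genes whose levels followed each member most closely were sought among 8851 genes over 10 points, the 5 gates in 2 libraries. These points share libraries, depth and free RNA, so the correlations of log2(CPM + 1) are descriptions. Eomes went with Klrk1 (Pearson's r = 0.98), which encodes the NKG2D receptor, Nr4a2 (0.97) and Klrd1 (0.96). Klrk1 was 31.9 and 104 CPM in regulatory T cells and 595 and 705 CPM in NK cells. Bcl11b went with Sit1 (0.98), Sntb1 (0.96) and Plcg1 (0.96), the phospholipase of T cell receptor signalling, which was 7.78 and 5.53 CPM in NK cells and 75.7 and 67.3 CPM in conventional CD4 T cells.

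Foxp3 went with Trib1 (0.98), Iigp1 (0.97) and Tnip1 (0.97), and Ikzf2 with Gm2a, Vrk1 (0.96 each) and Odc1 (0.95). Tcf7 went with Slc20a1, Klf3 (0.95 each) and Hs3st3b1 (0.94), of which Klf3 was 249.7 and 211 CPM in conventional CD4 and 31.9 and 55.7 CPM in regulatory T cells. Tox went with Naa50, Naca and Cip2a (0.97 each), Gata3 with Slfn2, Gpr146 (0.95 each) and Gna13 (0.94), and Rora with Ikbkb, Faah and Smpdl3a (0.95 each). Tbx21 went with Metrnl, Ppig (0.92 each) and AW112010 (0.90), and Lef1 with Siah1a (0.89), Pum2 (0.88) and Arid1a (0.86).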

How the data were processed

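Counts are the raw UMI counts per gene and cell that the authors deposited, made with fastp for trimming, UMI-tools for the barcodes and STAR for mapping to Ensembl release 100 (GRCm38 in the submitters' processing notes). No column of an authors' comparison was among the files. Following the study's methods, the filter required more than 200 detected genes and a mitochondrial share below 10%, after which 13 mitochondrial genes were dropped. No cluster names or cell annotations were used, doublets were not called, and cells were gated on marker UMIs.

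UMIs were summed per gate and library and divided by the gate's total (CPM), with exact Poisson intervals. Shares have Clopper-Pearson intervals at 95%, and log2 ratios used a pseudocount of 0.5 UMIs with intervals conditional on the sum of both counts. Genes under 20 UMIs, over both libraries for ratios and in each library for gate folds, were not called. Cells were thinned to 2000 UMIs without replacement, shallower cells left out. The 10 genes are named in each gate, the state genes and markers by list, of the 35 other factors the 2 highest and 2 lowest ratios per gate, and for likeness the 3 highest correlations among genes with at least 100 UMIs, gating markers and the members left out. The members, lists and rules were chosen with earlier results of these data known. Coordinates are from GENCODE annotation of GRCm38. A gene of the memory or naive list is not reported here. The ratio procedure was tested on simulated data.

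The labels give 1 library of 3 pooled mice per genotype, so no test was made and no p-value is given. Alternatives changed the cell filter, the exclusion of other lineages, the marker minimum, the regulatory gate, thinning, the mean of each cell's CPM, TMM scaling (edgeR 4.0.16, R 4.3.3), the deepest 5% of cells, cells with a Mki67 or Top2a UMI, the pseudocount (2) and the low count filter. Added after seeing the data were CD4 and CD8 by the larger count, leaving out barcodes found in both libraries, NK cells without Cd8 and thinned shares by Mki67 or Top2a UMI. Python 3.11.15, numpy 2.4.6, pandas 2.3.3 and scipy 1.17.1 were used.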

Additional observations from a re-analysis of the deposited data

Results flagged for a closer look

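The T cells in no gate were 589 and 392 cells that had UMIs of both Cd4 and Cd8 (219 and 96) or of neither (370 and 296). Some of those with both entered gates where the larger of Cd4 and Cd8 decided, and no other comparison used T cells in no gate. Together they carried all 10 genes above the level of the myeloid reference. Their levels were 154 and 131 CPM for Tcf7, 40.1 and 50.6 CPM for Lef1, 133 and 109 CPM for Tox, 68.1 and 114 CPM for Eomes and 113 and 145 CPM for Tbx21. Foxp3 was at 197 and 91.4 CPM, Ikzf2 at 499.96 and 317 CPM, Gata3 at 79.7 and 61.4 CPM, Rora at 259 and 159 CPM and Bcl11b at 129.7 and 105 CPM. A Foxp3 UMI was found in 28.4% and 16.1% of these cells and an Eomes UMI in 18.8% and 29.1%, against 7.93% and 3.79% and against 2.90% and 4.60% of myeloid cells.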

How the results depend on the processing

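Of 1766 single values recomputed under the alternatives, 1412 moved by less than their counting interval, 331 moved by more and 23 that had passed their threshold in that library or ratio changed sign, and of 140 counts and shares 102 stayed within 1.5-fold. Sign changes of values that had not passed are counted among the others, and only some of them are named. All log2 values here are those of the report recomputed. Counts of genes called under an alternative, here and above, stand without the share of all genes called under that same alternative. That share is given only for the setting with no filter on low counts. A count that rose or fell is therefore not read as a result about the members. Keeping only cells with at most 2 UMIs of other lineages left 78 and 51 CD8, 31 and 29 conventional CD4, 12 and 3 regulatory, 10 and 7 gamma delta-like T cells and 37 and 104 NK cells, so fewer genes could be called. Between the libraries 1 member was then called in CD8, 1 in conventional CD4 and 1 in regulatory T cells, 0 in gamma delta-like T cells and 2 in NK cells, and between gates 1 for NK over CD8, 0 for gamma delta-like over CD8, 1 for conventional CD4 over CD8 and 1 for regulatory over conventional CD4. The call between the libraries in conventional CD4 T cells was none of Tox, Foxp3 and Ikzf2. The ratios of Foxp3 (4.10) and Rora (0.26) in CD8, Bcl11b in regulatory T cells (0.78) and Ikzf2 in NK cells (0.024) changed sign, as did the folds of Foxp3 for NK over CD8 (0.40, Irg1+/+) and, in the library labelled Irg1-/-, Gata3 for gamma delta-like over CD8 (-1.35), Foxp3 (-1.66) and Gata3 (-3.48) for conventional CD4 over CD8 and Bcl11b for regulatory over conventional CD4 (0.88). With no exclusion of other lineages 1 member was called in regulatory and 3 in gamma delta-like T cells, and regulatory over conventional CD4 gave 0.15 for Rora and 0.016 for Bcl11b in the library labelled Irg1-/-. The call between the libraries in regulatory T cells was neither Foxp3 nor Bcl11b.

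Without cells that held a Mki67 or Top2a UMI 1 member was called between the libraries in CD8, 0 in conventional CD4 and 1 in regulatory T cells, and 1 for gamma delta-like over CD8. Every call that CD8 and regulatory T cells had given between the libraries was lost there, so the 1 call in each fell on another member. Gata3 in CD8 T cells stood at 67.0 and 33.1 CPM (64 and 16 UMIs). Tbx21 in regulatory T cells stood at 59.9 and 246 CPM (15 and 29 UMIs). Of the values that had passed, the ratios of Foxp3 (0.48) and Rora (0.15) in CD8 changed sign, as did Tcf7 for gamma delta-like (-0.011) and conventional CD4 (-0.25) over CD8 in the library labelled Irg1-/- and Lef1 for conventional CD4 over CD8 in the other (-0.18). Of those that had not, the Tcf7 ratio in CD8 T cells turned to 0.34 and Tcf7 for NK over CD8 to -1.22 in the library labelled Irg1-/-. In the Tcf7 split 2 memory or naive genes were then higher and 1 lower, 0 effector genes and 0 other members were higher, and in the library labelled Irg1+/+ the sign changed for Cd244a (0.026), Gzmk (-0.095), Ccl5 (-0.56) and Eomes (-0.43), whose intervals had left out equality, and also for Xcl1 (-2.52), Klrg1 (-1.41), Id3 (-0.61), Foxp3 (-0.51) and Bcl11b (-0.31), whose intervals had not. Thinning before the split gave 1 memory or naive gene lower, 0 effector genes higher, 0 other members lower and Ccl5 at -0.15. Thinned gates gave 1 member in CD8 and 0 in conventional CD4 T cells. Averaging CPM over cells gave 1 in CD8, where Foxp3 stood at 0.17, 5 in regulatory and 3 in gamma delta-like T cells, and 1 for gamma delta-like over CD8. Leaving out the 5% of cells with the most UMIs gave 1 in CD8, at least 2 UMIs of the gating markers gave 2 in gamma delta-like T cells, and a regulatory gate set by Foxp3 gave 1 in conventional CD4 T cells, with Ikzf2 at 0.15. Assigning cells with both markers by the larger of Cd4 and Cd8, chosen after seeing the data, gave 1 in conventional CD4 and 1 in regulatory T cells. With no filter on low counts the share of all genes called was 4.89% in conventional CD4 and 2.98% in gamma delta-like T cells between the libraries, and 32.8% for gamma delta-like over CD8, 15.3% for conventional CD4 over CD8 and 7.52% for regulatory over conventional CD4. Where no construction of the alternative shows it, the cause was not tested. TMM scaling shifted ratios by 0.01 to 0.07 on the log2 scale, and by 0.18 in gamma delta-like T cells. No paired analysis was possible because each genotype has 1 library, and no replicate could be left out. Depth limits the gamma delta-like gate most, with 58520 and 109562 UMIs.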
